A study of Mus musculus with 42 samples.

Results

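The heart fields of *Ccdc40* mutant mouse embryos with inverted heart looping were examined for genes that differed between the right and the left side. The group was taken from the labels as every homozygous mutant whose looping is given as inverted, which gave 10 of 42 libraries, the left and the right side of 5 of 21 embryos. All embryos were on a C57Bl6J background, and mutants carried *Ccdc40*lnks on both alleles, a nonsense allele from a chemical mutagenesis screen. The gene encodes a protein that motile cilia need in order to beat. The inverted embryos were named 2_7, 4_6, 10_3, 18_2 and 32_2, of which 3 were male and 2 were female (2_7 and 32_2). The comparison groups were 11 homozygous mutants with rightward looping and 5 wild-type embryos, with 22 and 10 libraries. No agent was given to any group. Embryos were collected at stage E8.5i, when the ventricles of the looping heart tube are tilted. What was kept was the tissue around the heart tube down to the level of the second somite, without tube, head or back, and each embryo gave a left and a right sample. Each library therefore came from the heart field of 1 side of 1 embryo, with other tissue that the dissection leaves, such as endoderm, ectoderm and vessels. Mutants were chosen for sequencing by stage, looping and sex, so that the inverted group is a sample of a rare outcome of the genotype.

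Left and right are set apart before the heart loops, when beating cilia move fluid across the embryonic node. The secreted factor NODAL then acts in the left lateral plate mesoderm, where it induces its own feedback inhibitor LEFTY2. The heart field lies in this mesoderm, behind and below the heart tube, and adds cells to the arterial and venous poles of the tube as it elongates. In situs inversus totalis the organs form as a mirror image, and this is the laterality to which the study assigns the sequenced embryos with inverted looping, from their clustering by asymmetric expression.

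The counts per library of the inverted embryos ranged from 36073684 to 62970327 with a median of 42475655, and no difference between the sides was detected (log2 ratio of right over left 0.02 ± 0.20, SD, n = 5, exact sign-flip test, two-sided p = 0.875). With 5 pairs this test cannot fall below the threshold of 0.05. Expression levels are given as CPM, in which the counts of a library are divided by its TMM-scaled total. *Ccdc40* itself had 12.6 ± 1.40 CPM on the left and 11.9 ± 1.48 on the right of the inverted embryos (SD, n = 5), against 19.9 ± 3.01 and 21.4 ± 4.18 in the wild types. Of the markers of the labelled tissue, 18 of 18 genes of second heart field progenitors and 10 of 10 of cardiopulmonary progenitors were expressed at a level that could be tested. Markers of other tissues were detected as often, among them 16 of 16 of foregut endoderm, 14 of 15 of visceral endoderm, 14 of 14 of blood and 17 of 18 of neural tube, so that detection alone does not set the heart field apart from these. No library of the inverted embryos was a copy of another.

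Right was compared with left within each embryo, to find which genes of the heart field are asymmetric when the heart loops to the wrong side. The test was edgeR's quasi-likelihood test with a term for the embryo, and p-values were adjusted after Benjamini and Hochberg. At a threshold of 0.05, 395 of 22960 genes were higher on the right, 1.72% of those tested, and 73 were higher on the left, 0.318%. All 468 had the same direction in each of the 5 embryos. The calls were made on these same embryos, so that this agreement is not separate evidence. Across all genes tested, 8.04% were higher on the right in every embryo, 7.51% were higher on the left in every embryo, and the median log2 fold change was -0.005. In either direction, 3468 of 22960 genes had an unadjusted p under 0.05 by edgeR. DESeq2 called 1187 right-sided and 568 left-sided. The counts of lists given below at an unadjusted p or by DESeq2 are to be read against these. The right-sided genes included 33 of 35 genes of heart muscle examined, transcription factors of the heart and ligands of the BMP and WNT families. The left-sided genes with the largest changes included *Hes5* and *Pax6* of the neural tube and *Myf5* of the somites. Protein-coding genes made up 94.7% of the right-sided and 88.9% of the left-sided genes, against 67.8% of all genes tested. The median log2 fold change, given as right over left throughout, was 0.83 for the right-sided and -0.97 for the left-sided genes. In bulk tissue such as this, fewer cells of a type and less RNA per cell cannot be told apart.

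Each embryo was also set against genes called in the other 4. Of the genes called right-sided without 18_2 or without 32_2, all 161 and all 123 were higher on the right in the embryo left out. The share was 94.2% (310 of 329) for 10_3, 93.8% (195 of 208) for 4_6 and 88.5% (324 of 366) for 2_7. Of all genes, 48.2 to 51.4% were higher on the right in an embryo. The called genes are not independent of each other, so that each share describes 1 embryo and not many separate results. For left-sided genes it ran from 82.9% (97 of 117) in 10_3 to 100% (15 of 15) in 32_2. The number of calls moved with the embryos: it was 222 without 4_6, 181 without 18_2 and 138 without 32_2. For single genes called right-sided or left-sided, the embryos without which that call was lost are given below, and a gene with none given kept it without any 1 embryo.

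**Figure D1:**
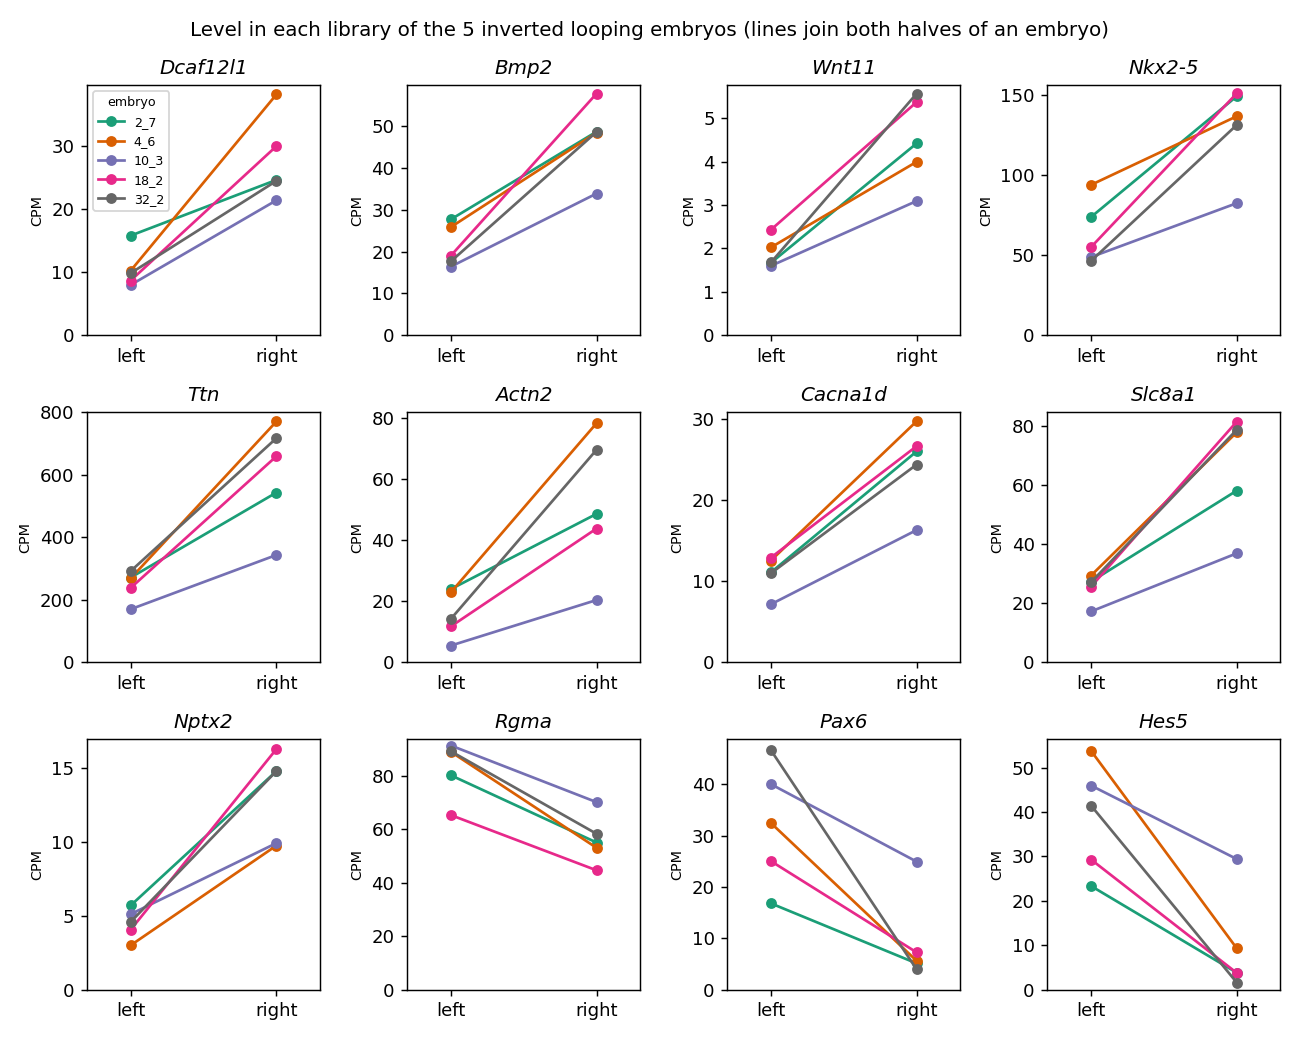
Expression level (CPM, counts divided by the TMM-scaled library total) of 12 genes in the left and right library of each inverted looping embryo, with 1 line for each of the 5 embryos. Every line rises to the right for the heart and signalling genes, as for *Dcaf12l1* from 8.00 to 15.8 CPM on the left to between 21.4 and 38.2 on the right, and falls for *Rgma*, *Pax6* and *Hes5*.

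*Lefty2* (chr1:180720635-180726932 of GRCm39, plus strand) encodes the feedback inhibitor of NODAL. In the order 2_7, 4_6, 10_3, 18_2 and 32_2, which is kept below, it had 11, 21, 12, 4 and 13 counts on the left and 1790, 128, 63, 110 and 99 on the right (log2 fold change 3.99, SE 0.67, adjusted p = 0.0251 by edgeR). Embryo 2_7 stood far above the other right sides, and the call was lost without 4_6, 18_2 or 32_2, while the log2 fold change stayed between 3.09 and 4.44. Of the ligands, *Nodal* had 1 to 11 counts in a library and *Gdf3* 0 to 8. *Gdf1* is listed at 0 in all 10, but it overlaps *Cers1* on the same strand, so that reads on both may have gone uncounted and its level cannot be read from these counts. Of the 5 inhibitors *Lefty2* was the 1 called. Of the other genes of the pathway, 1 of 9 receptors and processing factors was called (*Furin*, a protease, 0.50 on the log2 scale) and 1 of 9 effectors and targets examined (*Skil*, a corepressor of SMAD proteins, 0.40). Of the 9 receptors and processing factors, 4 were right-sided at an unadjusted p under 0.05 by edgeR, and DESeq2 called 2. The largest log2 fold change of these 9, at 2.20, was not called. The calls of *Furin* and *Skil* were each lost without 4_6, without 18_2 or without 32_2, that of *Furin* also without 10_3 and that of *Skil* also without 2_7.

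Of the gene lists, that of heart muscle held the most called genes. It was made up of 35 genes of the sarcomere, the contractile unit, and of proteins bound to it. Of these, 33 were higher on the right and 0 on the left. Each of the 35 was higher on the right in all 5 embryos, and the median log2 fold change was 1.25. *Ttn* (chr2:76534136-76812891, minus strand) encodes titin, the spring that spans the sarcomere. It had 272, 269, 170.5, 239 and 292 CPM on the left and 544, 771, 344, 659.8 and 718 on the right. The lowest right side lay above the highest left side (log2 fold change 1.27, SE 0.08, adjusted p = 0.0025 by edgeR). *Actn2*, the α-actinin of the Z-disc, had 24.0, 22.9, 5.53, 11.8 and 14.2 CPM on the left and 48.6, 78.3, 20.4, 43.8 and 69.6 on the right. The sides of different embryos overlapped here, as 10_3 was low on both, but each embryo was higher on the right (1.78, SE 0.16, adjusted p = 0.0036). Cardiac α-actin, encoded by *Actc1*, rose from 447 ± 144 to 957 ± 259.8 CPM (1.12, SE 0.08, adjusted p = 0.00257). *Acta1*, the α-actin of skeletal muscle that the early heart also uses, rose by 1.70, the inhibitory troponin *Tnni3* by 1.56, the titin cap *Tcap* by 1.56 and the light chain *Myl3* by 1.46. The calls of *Acta1* and *Tnni3* were lost without 4_6 or 32_2, and that of *Tcap* without 4_6, 18_2 or 32_2.

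The 2 genes that missed the threshold were *Myh7*, the slow myosin heavy chain (1.45, adjusted p = 0.0859), and *Myom2*, an M-band protein (2.16, adjusted p = 0.0617). Leaving out 1 embryo at a time left 24 to 35 of the list called. Without the embryo as a block 13 were called. When the spread was estimated from all 42 libraries, 4 of 35 were called, at a median of 1.25. Outside the list, some of the most changed right-sided genes are also known from muscle. *Thbs4*, a matrix glycoprotein, rose by 2.00, *Hspb2*, a small heat shock protein of muscle, by 1.70, and *Ctnna3*, the α-catenin of the discs between heart muscle cells, by 1.62. *Abra*, an activator of serum response factor in muscle, rose by 2.28 and was not called without 4_6 or 32_2. *Srpk3* (chrX:72817975-72822563, plus strand) encodes a protein kinase of striated muscle and had 0.980, 1.58, 0.489, 1.03 and 1.05 CPM on the left and 4.87, 5.98, 2.16, 3.57 and 4.72 on the right. The sides did not overlap (2.07, SE 0.15, adjusted p = 0.00257).

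The summed level of the 35 genes ran from 2698.7 to 5094.9 CPM on the left and from 4952.1 to 10195 on the right. The log2 ratio of the sums was 0.66 in 2_7, 1.03 in 4_6, 0.88 in 10_3, 1.24 in 18_2 and 1.36 in 32_2. The same ratio in the wild types spread from -1.55 to 0.98, with 3 of 5 higher on the right, and in the rightward looping mutants from -1.36 to 1.28, with 6 of 11. The inverted embryos were thus alike in direction where the other groups were not, yet the ratios of all but 32_2 lay within the range of the rightward looping mutants. The heart tube had been cut away, and how much muscle was left on each side of an embryo was not recorded in the sources used here, so that its part in these differences was not tested.

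**Figure D2:**
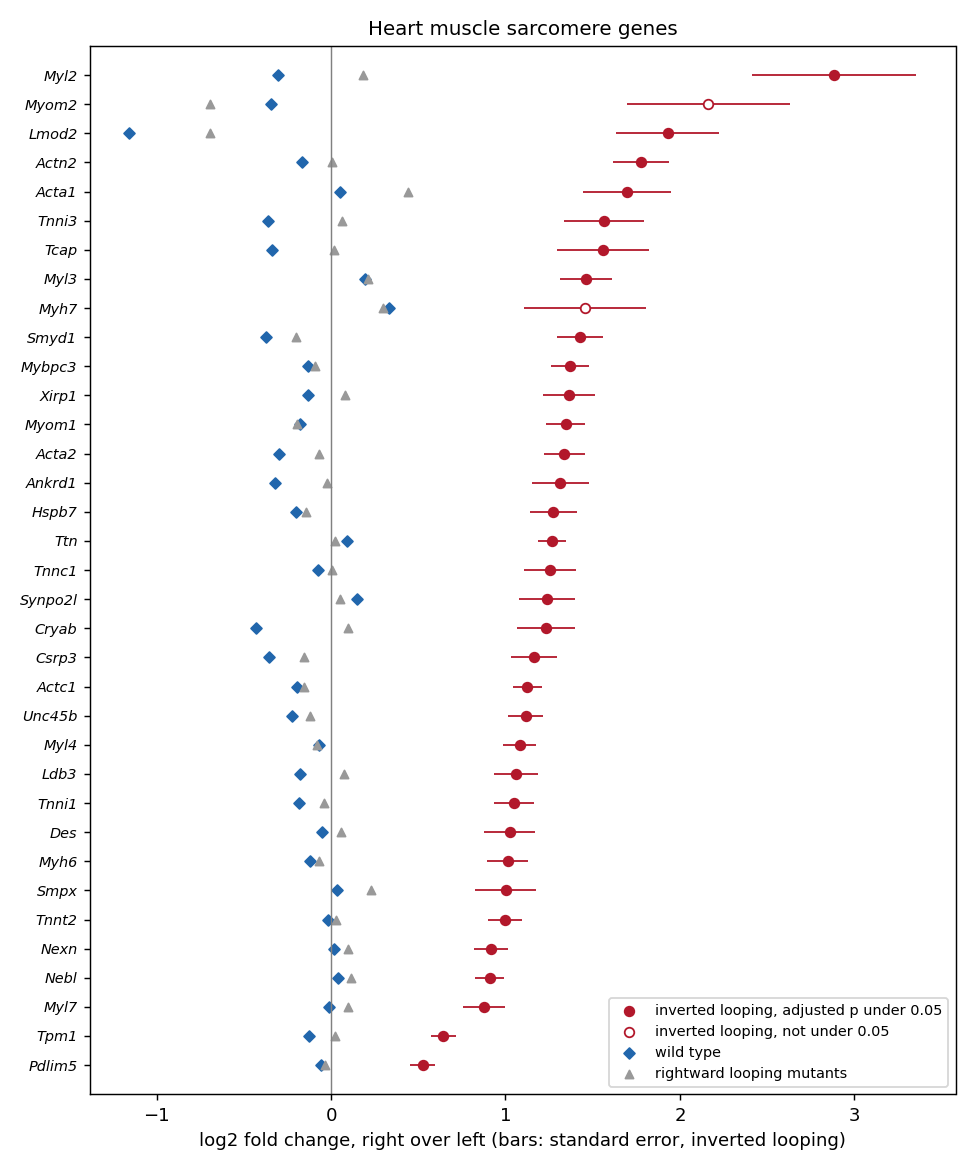
Log2 fold change of right over left for the 35 sarcomere genes, with circles and standard error bars for the inverted looping embryos (filled at an adjusted p under 0.05), diamonds for wild types and triangles for rightward looping mutants. All circles lie to the right of 0 at a median of 1.25, whereas the medians of the other groups are -0.13 and 0.02.

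The sequence upstream of the right-sided muscle genes was read from the reference, since serum response factor and MEF2 proteins bind known short sequences in muscle promoters. Windows were the 250 bases before the canonical start site of each gene in GENCODE, on GRCm39, searched on both strands. The CArG box of serum response factor stood in 4 of 35 windows of the sarcomere list (11.4%), in 3.30% of the right-sided genes and in 1.27% of the 22829 tested genes with a window. The MEF2 site stood in 5 of 35 (14.3%), in 7.11% of the right-sided and 2.79% of all genes. The sequence TNAAGTG, a core that NKX2-5 can bind, stood in 4 of 35 (11.4%), in 7.61% of the right-sided and 9.89% of all genes. The CArG box and the MEF2 site were in windows of different genes of the list. The left-sided genes had shares of 1.39%, 4.17% and 6.94% in that order. These shares describe letters in a window and not binding. The windows below are shown for genes of the list with a match and no overlap with an annotated exon, 5′ to 3′ on the strand of the gene, with the match in capitals. *Mybpc3* encodes a myosin-binding protein of the thick filament (chr2:90948239-90948488, plus strand), *Synpo2l* a Z-disc protein (chr14:20718423-20718672, minus), *Csrp3* the muscle LIM protein (chr7:48497902-48498151, minus) and *Myl7* the atrial regulatory light chain (chr11:5848793-5849042, minus). The first 3 hold a MEF2 site and *Myl7* a CArG box.
Mybpc3: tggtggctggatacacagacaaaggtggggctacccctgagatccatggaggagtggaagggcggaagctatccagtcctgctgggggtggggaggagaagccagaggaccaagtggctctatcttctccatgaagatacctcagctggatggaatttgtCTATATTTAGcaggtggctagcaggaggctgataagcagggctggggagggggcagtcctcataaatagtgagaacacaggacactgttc
Synpo2l: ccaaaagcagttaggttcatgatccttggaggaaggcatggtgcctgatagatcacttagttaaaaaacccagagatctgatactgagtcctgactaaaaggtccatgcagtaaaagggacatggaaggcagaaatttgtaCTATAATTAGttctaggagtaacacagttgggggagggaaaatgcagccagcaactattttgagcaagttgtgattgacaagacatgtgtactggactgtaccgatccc
Csrp3: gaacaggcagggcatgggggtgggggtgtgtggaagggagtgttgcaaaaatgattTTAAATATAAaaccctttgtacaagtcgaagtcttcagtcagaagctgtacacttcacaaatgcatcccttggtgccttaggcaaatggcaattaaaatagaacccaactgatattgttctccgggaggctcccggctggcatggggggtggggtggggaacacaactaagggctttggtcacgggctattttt
Myl7: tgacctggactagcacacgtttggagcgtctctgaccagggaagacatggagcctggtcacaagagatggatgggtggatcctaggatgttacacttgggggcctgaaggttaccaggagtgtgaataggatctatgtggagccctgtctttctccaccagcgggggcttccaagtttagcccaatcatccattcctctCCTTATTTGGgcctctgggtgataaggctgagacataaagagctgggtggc
The matches begin 90, 109, 194 and 51 bases before the start. All 4 genes were higher on the right, with log2 fold changes of 1.37, 1.24, 1.16 and 0.88 (adjusted p = 0.00262, 0.0101, 0.00702 and 0.0116 by edgeR). The call of *Synpo2l* was lost without 32_2.

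Of 26 genes that move calcium and ions in heart muscle, 11 were called right-sided and 0 left-sided, at a median of 0.44, and 12 were higher on the right in all embryos. The log2 ratio of their summed level was 0.17, 0.25, 0.0011, 0.23 and 0.02. *Slc8a1*, the sodium-calcium exchanger that removes calcium after each beat, had 27.3, 29.4, 17.2, 25.6 and 27.1 CPM on the left and 58.0, 77.7, 36.9, 81.3 and 78.6 on the right. The sides did not overlap (log2 fold change 1.37, SE 0.10, adjusted p = 0.00252 by edgeR). *Cacna1d* (chr14:29761896-30213412, minus strand) encodes the L-type calcium channel of pacemaker cells. It had 11.1, 12.6, 7.17, 12.9 and 11 CPM on the left and 26, 29.7, 16.3, 26.7 and 24.4 on the right, again without overlap (1.18, SE 0.07, adjusted p = 0.0025). It was called under every alternative tried. The store of calcium was represented by triadin (*Trdn*, 2.37), which was lost without 32_2, the histidine-rich calcium-binding protein (*Hrc*, 4.37 ± 0.683 to 10.8 ± 2.00 CPM), the release channel *Ryr2* (0.86), and *Jph2*, which holds the store to the cell membrane (0.95, lost without 4_6, 10_3, 18_2 or 32_2). Leaving out 1 embryo at a time left 5 to 9 members of the list called, with the fewest without 32_2 and 6 without 4_6. *Ppp1r14c*, an inhibitor of protein phosphatase, was among the 5 right-sided genes with the smallest p and rose from 27.1 ± 5.55 to 50.1 ± 11.5 CPM. Of the 3 secreted hormones of the heart chambers, 0 were called by edgeR or DESeq2 and 0 had an unadjusted p under 0.05, with log2 fold changes from -0.06 to 0.34.

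Of 26 transcription factors of the heart, 7 were higher on the right and 0 on the left, at a median of 0.45. *Nkx2-5*, the homeobox factor of heart progenitors and muscle, had 73.7, 93.7, 48.8, 55.0 and 46.3 CPM on the left and 149, 136, 82.3, 151 and 131 on the right. Every embryo was higher on the right, although the right of 10_3 lay below the left of 4_6 (log2 fold change 1.06, SE 0.14, adjusted p = 0.0111 by edgeR). *Tbx5*, the T-box factor of the venous pole, had 51.2, 68.0, 42.4, 51.2 and 39.5 CPM on the left and 78.6, 96.8, 64.7, 92.6 and 82.7 on the right (0.74, SE 0.09, adjusted p = 0.00702). *Tbx20* rose by 0.95, *Mef2c* by 0.73, and *Myocd*, a coactivator of serum response factor, by 0.80, the last from 149.9 ± 29.6 to 261 ± 56.2 CPM. *Shox2*, a factor of the sinoatrial node, rose by 1.09 with a low ratio in 2_7, and *Gata5* by 0.59. The calls of *Myocd* (4_6 and 32_2), *Shox2* (4_6, 10_3, 18_2 and 32_2) and *Gata5* (2_7, 10_3, 18_2 and 32_2) were lost without the embryos named. Leaving out 1 embryo at a time left 4 to 7 of the list called, and 0 of 26 were called when the spread was estimated from all 42 libraries.

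The venous pole brings blood to the heart and gives rise to its pacemaker. Among its genes, 5 of 12 were right-sided, at a median of 0.72: *Cacna1d*, *Shox2*, *Tbx5*, the pacemaker channel *Hcn4* (14.9 ± 2.23 to 25.1 ± 4.62 CPM, log2 fold change 0.76, adjusted p = 0.00538) and the calcium sensor *Vsnl1* (29.6 ± 6.35 to 47.3 ± 8.5 CPM, 0.69, adjusted p = 0.0101). In the atrioventricular canal, the narrow part between atria and ventricles, 4 of 9 were right-sided at a median of 0.56. These were *Bmp2*, *Rspo3*, *Msx2* and *Gal*, which encodes the peptide galanin (1.88). Of these, 2 were left without 18_2 and 2 without 32_2. Progenitors that heart and lung share had 4 of 10 right-sided genes, *Ccn4*, *Tbx5*, *Wnt2* and *Osr1* (0.60). Of these, 2 were called without 4_6, 2 without 18_2 and 2 without 32_2. Second heart field progenitors had 4 of 18, *Wnt11*, *Bmp4*, *Rgs5*, a regulator of G-protein signalling (0.83), and *Tgfb2* (0.54). That number was 1 without 18_2, 1 without 32_2 and 7 without 10_3. The calls of *Osr1* and *Rgs5* were lost without 2_7, 4_6, 18_2 or 32_2, that of *Tgfb2* without 18_2 or 32_2, and that of *Msx2* without 4_6, 10_3, 18_2 or 32_2. Of 16 regulators of the lateral plate mesoderm examined, 2 were right-sided, *Tbx5* and *Osr1*. In the proepicardium, 0 of 12 genes passed the test of edgeR, where 2 in each direction had an unadjusted p under 0.05, and DESeq2 called 1 in each direction.

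BMPs are secreted factors that drive heart muscle differentiation and shape the atrioventricular canal. Of 7 BMP ligands tested, 3 were higher on the right and 0 on the left, at a median of 0.48. *Bmp2* (chr2:133394079-133404816, plus strand) had 27.7, 25.8, 16.4, 19.0 and 17.6 CPM on the left and 48.6, 48.4, 33.8, 57.7 and 48.6 on the right. The sides did not overlap (log2 fold change 1.17, SE 0.12, adjusted p = 0.00564 by edgeR). *Bmp4* had 51.4, 56.8, 36.7, 49.0 and 35.3 CPM on the left and 75.3, 71.5, 70.3, 101 and 85.3 on the right, without overlap (0.84, SE 0.13, adjusted p = 0.0198). *Bmp7* rose by 0.48. The calls of *Bmp4* (18_2 and 32_2) and *Bmp7* (2_7, 4_6, 18_2 and 32_2) were lost without the embryos named, and that of *Bmp2* was kept without any 1 of the 5.

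Of 16 antagonists, *Bmper*, which binds BMPs outside the cell, was called. It had 5.95, 7.47, 5.31, 6.96 and 5.36 CPM on the left and 13.9, 12.9, 11.2, 16.2 and 10.6 on the right (log2 fold change 1.07, SE 0.11, adjusted p = 0.00483). All right sides lay above all left sides. Of 5 BMP receptors 0 passed the test of edgeR. At an unadjusted p under 0.05 there was 1 in each direction, and DESeq2 called 1 in each. Of 14 response genes, 3 were right-sided: the decoy receptor *Bambi* (118 ± 15.5 to 183 ± 18.1 CPM, 0.64), the homeobox factor *Msx2* (0.54) and the inhibitory *Smad7* (0.47). The median of the response genes was 0.46 and 8 of 14 were higher on the right in all embryos. Without 10_3, without 18_2 or without 32_2, 1 of the 14 was called. The call of *Smad7* was lost without any 1 embryo.

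WNT genes moved in both directions. Of 17 ligands, 2 were right-sided. *Wnt11*, which acts without β-catenin in the outflow tract, had 1.67, 2.02, 1.60, 2.43 and 1.68 CPM on the left and 4.42, 3.99, 3.09, 5.37 and 5.56 on the right (log2 fold change 1.25, SE 0.16, adjusted p = 0.0101 by edgeR). *Wnt2*, a ligand of heart and lung progenitors, had 161, 171, 122, 190.0 and 119 CPM on the left and 216, 257, 178, 243 and 240.2 on the right (0.59, SE 0.09, adjusted p = 0.0166), and was not called without 4_6. *Wnt16* was lower on the right at -1.37 but missed the threshold (adjusted p = 0.0985), which it passed under 2 of 15 alternatives. Of 19 secreted modulators, 2 were right-sided. These were *Rspo3*, which raises the response to WNT (5.08 ± 1.83 to 9.90 ± 2.08 CPM, 1.01), and *Sfrp5*, an inhibitor of the venous pole (112 ± 21.9 to 178 ± 15.2 CPM, 0.70). The inhibitor *Sfrp2* was left-sided, with 27.2, 47.6, 61.7, 22.2 and 68.6 CPM on the left and 18.7, 19.8, 41.9, 14.0 and 19.5 on the right (-0.96, SE 0.19, adjusted p = 0.0444). The calls of these 3 modulators were lost without 18_2 or without 32_2, those of *Sfrp5* and *Sfrp2* also without 4_6, and that of *Sfrp2* also without 2_7.

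Of 19 WNT receptors, *Fzd10* was left-sided (-0.89). Of 17 targets and feedback genes, 1 was right-sided and 2 were left-sided. *Ccn4* (chr15:66763060-66795050, plus strand), a secreted matricellular protein, had 10.7, 13.3, 8.33, 9.19 and 10.2 CPM on the left and 15.7, 17.3, 20.1, 27.8 and 23.1 on the right. The sides did not overlap (log2 fold change 1.01, SE 0.18, adjusted p = 0.0324 by edgeR). *Axin2*, a feedback inhibitor of β-catenin signalling, fell by 0.48 on the log2 scale, from 28.5 ± 6.95 to 20.3 ± 5.39 CPM, and *Nkd2*, another feedback inhibitor, fell by 0.56. Each call rested on several embryos. That of *Ccn4* was lost without 10_3, 18_2 or 32_2, that of *Fzd10* without 2_7, 4_6, 18_2 or 32_2, and those of *Axin2* and *Nkd2* without any 1 of the 5. The study had picked 8 signature genes on these samples, so that their direction is not independent evidence, and of these *Ccn4* and *Hspb8* were right-sided and *Ptgfr* was left-sided. The call of *Hspb8* was lost without 4_6, 18_2 or 32_2, and that of *Ptgfr* without 2_7, 4_6, 18_2 or 32_2.

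The other signalling pathways had up to 3 called members each. Of 23 FGF genes, the feedback inhibitor *Spry4* was right-sided (20.3 ± 5.54 to 32.8 ± 5.89 CPM, log2 fold change 0.72) and the ligand *Fgf15* was left-sided (34.3 ± 19.6 to 12.2 ± 12.4 CPM, -1.68). Of 19 Notch genes, 3 were left-sided, the ligand *Dll1* (-1.05), the modifier *Lfng* (-1.42) and the target *Hes5* (-2.61), where 0.318% of all genes were left-sided. *Hes5* also counts among the left-sided neural tube markers below. From which tissue of the sample these 3 came was not tested. In the retinoic acid pathway, 1 of 15 passed, *Crabp2*, which carries retinoic acid to its receptor. It had 225, 319.9, 387, 285 and 436 CPM on the left and 146, 222, 267, 139.5 and 162 on the right (-0.82, SE 0.13, adjusted p = 0.0193 by edgeR), and was not called without 18_2. Of 18 Hox genes tested, *Hoxd3* was left-sided (-1.87) and the median was -0.32. In the Hedgehog pathway 0 of 14 were called by edgeR, 4 were left-sided at an unadjusted p under 0.05, and DESeq2 called 2 left-sided. The calls of *Spry4*, *Fgf15*, *Lfng*, *Hoxd3* and *Hes5* were each lost without 2_7, without 4_6 or without 18_2, those of *Spry4*, *Hoxd3* and *Hes5* also without 32_2, and that of *Dll1* without 2_7, 4_6 or 32_2.

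Of 40 collagens and other matrix genes, 3 were right-sided and 0 left-sided: tenascin C (*Tnc*), nidogen 2 (*Nid2*), a basement membrane protein, and the collagen chain *Col5a1*. *Tnc* had 116, 165, 169, 159.8 and 132 CPM on the left and 173, 225, 208, 219.5 and 221 on the right, where the sides did not overlap (log2 fold change 0.52, SE 0.06, adjusted p = 0.00887 by edgeR). *Nid2* rose from 211 ± 30.5 to 302 ± 26 CPM (0.54), and *Col5a1* from 44.4 ± 3.12 to 66.9 ± 8.42 CPM (0.59), the latter not called without 32_2. Of the list, 11 of 40 were higher on the right in all embryos, and DESeq2 called 12. Without 2_7, 7 were called. Among 32 guidance genes the netrin receptors *Unc5c* (20.4 ± 2.97 to 33.8 ± 7.90 CPM, 0.72, adjusted p = 0.0101) and *Unc5b* (0.64) were right-sided, and their ligand netrin 1, *Ntn1*, was left-sided (17.2 ± 4.97 to 8.33 ± 1.11 CPM, -1.0, adjusted p = 0.0349). The calls of *Unc5b* and *Ntn1* were lost without 4_6, 18_2 or 32_2, and that of *Ntn1* also without 2_7.

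*Hk1* encodes hexokinase 1, which starts glycolysis. It had 47.0, 37.9, 41.2, 35.0 and 38.8 CPM on the left and 60.2, 94.6, 57.5, 67.1 and 80.9 on the right, and the sides did not overlap (log2 fold change 0.84, SE 0.13, adjusted p = 0.0211 by edgeR). It was the 1 gene called of 22 in glycolysis and the response to low oxygen, and the call was lost without 4_6, 18_2 or 32_2. Of 17 immediate early genes, which respond within minutes to handling as well as to signals, 3 were right-sided: *Fos* (2.52 ± 0.868 to 4.72 ± 1.03 CPM, 0.95), *Zfp36* (0.52) and *Jun* (0.26). Their calls were lost without 4_6, without 18_2 or without 32_2, those of *Jun* and *Zfp36* also without 2_7, and that of *Zfp36* also without 10_3. In 23 cell cycle genes and 25 genes of motile cilia, 0 were called by edgeR. At an unadjusted p under 0.05, 5 cell cycle genes were left-sided and 0 cilia genes were on either side, and DESeq2 called 3 and 0.

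The left-sided genes were fewer. Of 17 neural tube markers, 4 were left-sided and 0 right-sided, at a median of -1.32. *Pax6*, a paired-box factor of neural progenitors, had 16.8, 32.5, 40.0, 25.1 and 46.7 CPM on the left and 5.12, 5.61, 25, 7.26 and 3.95 on the right. Embryo 10_3 kept a high level on the right, and the others dropped by more (log2 fold change -2.02, SE 0.36, adjusted p = 0.0309 by edgeR). *Hes5*, a target of Notch in neural progenitors, had 23.3, 53.8, 46.0, 29.3 and 41.5 CPM on the left and 3.81, 9.30, 29.4, 3.76 and 1.60 on the right (-2.61, SE 0.48, adjusted p = 0.0342). The homeobox factor *Nkx6-1* fell by 1.45 on the log2 scale and *Olig2*, a factor of motor neuron progenitors, by 1.77. The same direction was seen for *Pou3f2* (-2.32), *Sp8* (-1.87) and *Scube2* (-2.64), which releases Hedgehog ligands from the cells that make them. Each of these calls was lost without 2_7, without 4_6 or without 18_2, and those of *Pax6*, *Hes5*, *Nkx6-1*, *Sp8* and *Scube2* also without 32_2. Without 2_7 and without 18_2 *Hes5* had adjusted p = 0.0915 and 0.117. Of the 17 neural tube markers, 0 were called without 2_7, without 4_6 or without 18_2, and 7 without 10_3. Without the block 0 were called.

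Among 11 markers of paraxial mesoderm, which forms the somites, *Myf5*, a factor that starts skeletal muscle, was left-sided (5.14 ± 3.74 to 0.966 ± 0.788 CPM, -2.44, adjusted p = 0.0349 by edgeR), and the median was -0.83. The call was lost without 2_7, 18_2 or 32_2. Of 11 markers of neural crest, *Sox9* was left-sided (-0.38, adjusted p = 0.0162), which was lost without 18_2 or without 32_2. The summed level of the neural tube markers was 168 to 254 CPM on the left and 83.8 to 182 on the right, with log2 ratios of -0.66, -1.19, -0.38, -0.84 and -1.50. For paraxial mesoderm the ratios were -0.71, -0.03, -0.62, -1.38 and -1.09. The neural tube lies on the midline, along which the tissue was cut. These sums include the left-sided markers themselves, so that their direction is not separate evidence. The part of such tissue in the result was not tested. In the wild types the ratio of the neural tube sums went from -0.64 to 1.79 and in the rightward looping mutants from -1.13 to 1.18, so that 3 of the 5 inverted embryos lay within the latter range.

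The left-sided genes with a small p included *Rgma*, *Nsg2*, *Grifin* and *Lrrn1*. *Rgma*, a cell surface protein that acts in guidance and as a BMP coreceptor, had 80.2, 89.0, 91.3, 65.3 and 89.2 CPM on the left and 55.0, 53.1, 70.1, 44.7 and 58.3 on the right (log2 fold change -0.56, SE 0.06, adjusted p = 0.00629 by edgeR). Each embryo was lower on the right by a similar ratio, and the call was kept without any 1 of the 5 embryos. *Nsg2* (-0.74) was likewise called without any 1 of the 5, whereas *Grifin*, a galectin of the lens (-1.10), and *Lrrn1* (-0.84) were not called without 32_2.

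Markers of endoderm, vessels, blood and surface ectoderm were examined as well. Of 16 foregut endoderm markers, *Hhex*, a homeobox factor of the foregut and liver, was right-sided (15.0 ± 4.40 to 30.0 ± 3.02 CPM, 1.04, adjusted p = 0.0342 by edgeR), and it was lost without 4_6, 10_3, 18_2 or 32_2. Without 2_7, 5 foregut markers were called. Of 19 endothelial markers, *Nfatc1*, a factor of the inner lining of the heart, was right-sided (0.54), and it was lost without any 1 embryo. Among 14 markers of visceral endoderm and 14 of blood, 0 were called by edgeR or DESeq2, and 0 had an unadjusted p under 0.05. The summed level of visceral endoderm varied from 71.7 to 897 CPM on the left and from 387 to 1730 on the right, with log2 ratios of -0.75, -1.21, 4.51, 1.11 and 0.73. Those of blood were -0.77, -1.09, 0.97, -0.38 and 0.05. In surface ectoderm 0 of 12 passed edgeR, and 3 were right-sided both at an unadjusted p under 0.05 and by DESeq2.

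**Figure D3:**
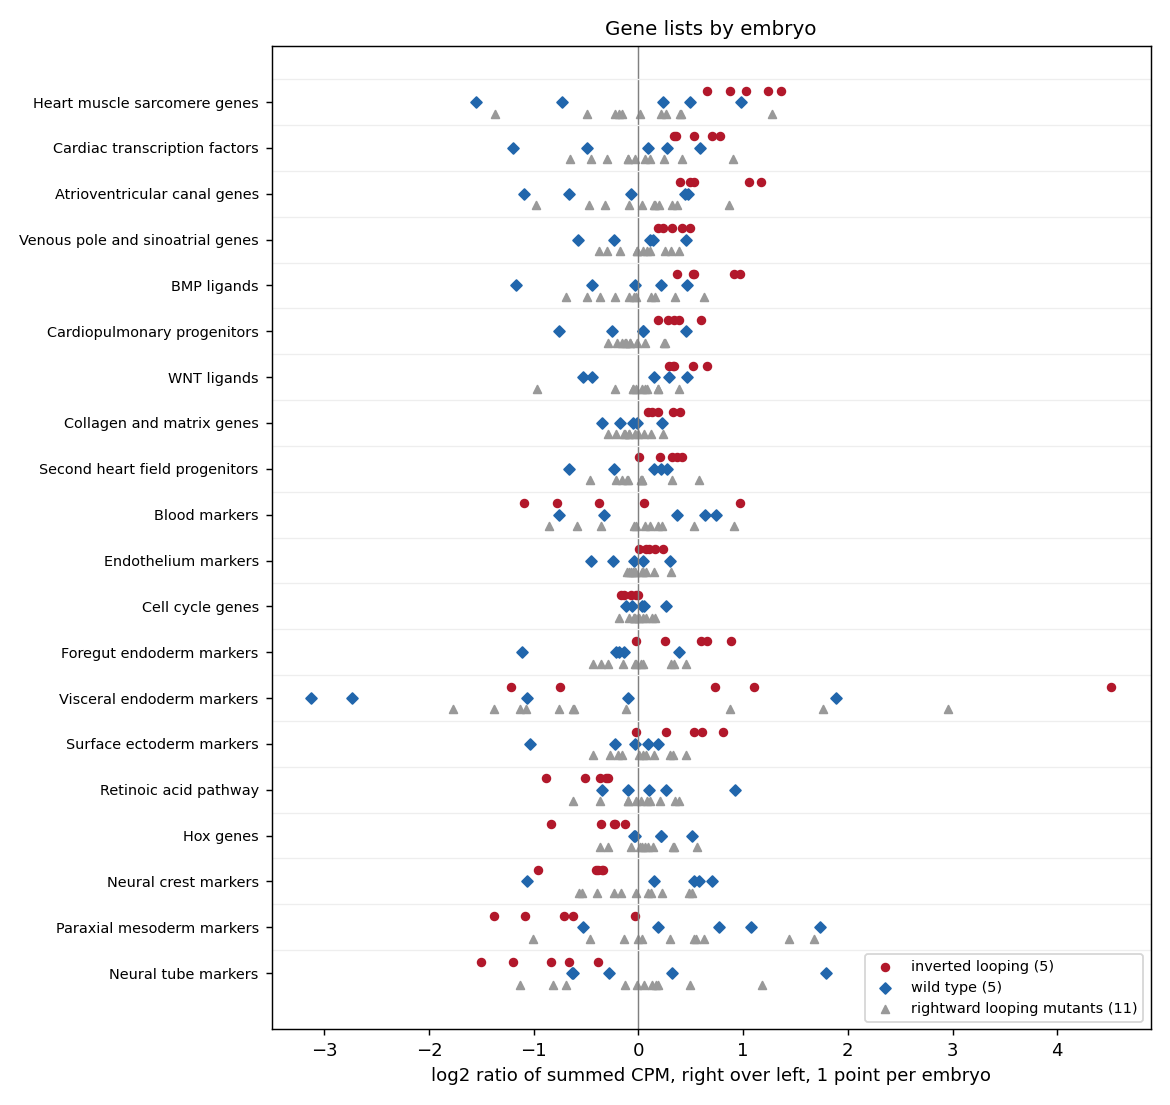
Log2 ratio of the summed CPM of a gene list, right over left, with 1 point for each embryo of the inverted looping, wild-type and rightward looping groups (5, 5 and 11 embryos). The 5 inverted embryos lie between 0.66 and 1.36 for sarcomere genes and between -1.50 and -0.38 for neural tube markers, where the other groups lie on both sides of 0.

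Whether these asymmetries differed from those of the other groups was tested in a single fit of the 42 libraries, as an interaction between side and group beside a term for each embryo. Against the wild types, 120 of 26335 genes (0.456%) were shifted to the right in the inverted embryos and 15 (0.057%) to the left at an adjusted p under 0.05 by edgeR. Against the rightward looping mutants, which share the genotype, 77 (0.292%) were shifted to the right and 5 (0.019%) to the left. Both tests share the inverted libraries, so that their lists are not independent of each other. The rightward group holds embryos that the study assigns to more than 1 laterality. *Dcaf12l1* (chrX:43875444-43879205, minus strand) had 15.8, 10.3, 8.00, 8.69 and 9.86 CPM on the left and 24.6, 38.2, 21.4, 30.0 and 24.5 on the right of the inverted embryos. It was higher on the left in all 5 wild types (log2 fold change -1.22) and all 11 rightward mutants (-0.97). The difference was 2.62 (SE 0.34, adjusted p = 0.00147) and 2.38 (SE 0.29, adjusted p = 0.000338).

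*Nptx2* (chr5:144482692-144500381, plus strand), a secreted pentraxin, had a like pattern, with 5.70, 3.00, 5.11, 4.06 and 4.58 CPM on the left and 14.8, 9.75, 9.91, 16.3 and 14.8 on the right of the inverted embryos. It was higher on the left in 5 of 5 wild types (log2 fold change -0.77), and 1 of 11 rightward mutants was higher on the right (-0.86). The differences were 2.31 (SE 0.39, adjusted p = 0.0102 by edgeR) and 2.40 (SE 0.34, adjusted p = 0.00115). *Bmp2* differed by 1.41 (adjusted p = 0.0302) and 1.31 (adjusted p = 0.0184), and *Bmper* by 1.34 (adjusted p = 0.0182) and 1.62 (adjusted p = 0.000588). *Hk1* differed by 1.16 (SE 0.18, adjusted p = 0.00513) and 1.00 (SE 0.15, adjusted p = 0.00241), and *Ccn4* by 1.91 (adjusted p = 0.0102) and 1.44 (adjusted p = 0.0184). *Srpk3* and *Slc24a2*, an exchanger of sodium and calcium, also passed both tests. Others passed against 1 group. *Cacna1d* differed from the rightward mutants by 1.60 (adjusted p = 0.0122) and *Wnt11* by 1.92 (adjusted p = 0.0317), whereas the values against the wild types were 1.44 (adjusted p = 0.0525) and 1.91 (adjusted p = 0.0615). Among the genes with an opposite shift, *Phf21b*, which encodes a PHD-finger protein, was higher on the right in 5 of 5 wild types and lower in all inverted embryos (difference -1.28, adjusted p = 0.0188), and the potassium channel subunit *Kcng1* differed from the rightward mutants by -1.24 (adjusted p = 0.0319).

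Leaving out 1 embryo of either group kept the difference from the wild types past the threshold for *Dcaf12l1*, *Nptx2*, *Hk1* and *Ccn4*. That of *Bmper* was lost without 18_2, 32_2 or the wild type 10_1, and that of *Bmp2* without these, 10_3 or the wild type 8_1. Against the rightward mutants *Lefty2*, *Dcaf12l1*, *Nptx2*, *Bmper*, *Hk1* and *Ptgfr* stayed past it without any 1 inverted embryo. The differences of *Ccn4*, *Bmp2*, *Cacna1d*, *Slc24a2*, *Wnt11*, *Kcng1* and *Srpk3* from these mutants were each lost without 18_2 or without 32_2, and all but that of *Ccn4* also without 4_6. Those of *Ccn4*, *Slc24a2*, *Wnt11* and *Srpk3* were also lost without 10_3, and those of *Wnt11*, *Kcng1* and *Srpk3* also without 2_7. That of *Phf21b* from the wild types was lost without 18_2, 32_2 or the wild type 10_1, and those of *Slc24a2* and *Srpk3* without 18_2, 32_2, or the wild type 8_1 or 10_1, that of *Srpk3* also without 4_6, 10_3 or the wild type 7_1. Between the sides of the inverted embryos, the calls of *Slc24a2* and *Phf21b* were lost without 4_6, 18_2 or 32_2. That of *Phf21b* was also lost without 2_7, and that of *Kcng1* was lost without 32_2.

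Of the 35 sarcomere genes, 1 differed from the wild types and from the rightward mutants, *Lmod2*, which nucleates actin filaments. It is named after its values were seen, and its difference was 3.07 (adjusted p = 0.0102) and 2.62 (adjusted p = 0.00966) at 0.422 to 4.64 CPM. Its call in the inverted embryos was lost without 4_6, 18_2 or 32_2. *Ttn* did not pass, with differences of 1.16 (SE 0.49, adjusted p = 0.299) and 1.23 (SE 0.41, adjusted p = 0.233), nor did *Nkx2-5*, with 1.23 (SE 0.54, adjusted p = 0.317) and 1.10 (SE 0.45, adjusted p = 0.378). The errors were larger than those of *Hk1*, whose differences were 1.16 and 1.00. For *Pax6*, which did not pass either, the difference was -2.15 (SE 0.90, adjusted p = 0.292) and -2.18 (SE 0.77, adjusted p = 0.283).

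**Figure D4:**
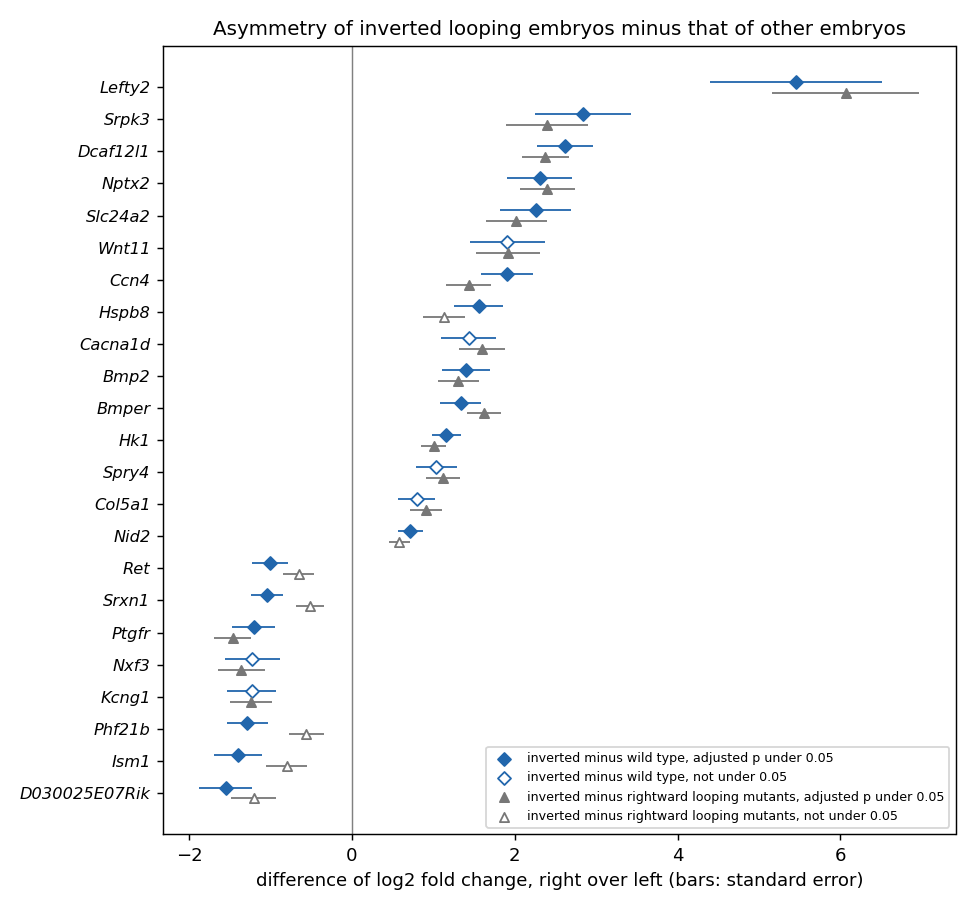
Asymmetry of the inverted looping embryos minus that of wild types and of rightward looping mutants, as a difference of log2 fold changes (right over left) with standard error bars, filled at an adjusted p under 0.05. *Dcaf12l1* lies at 2.62 and 2.38 and *Hk1* at 1.16 and 1.00, all filled, and the genes shifted to the left reach -1.55.

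The called genes were also followed in the other groups. Of 394 right-sided genes with a value in the wild types, 343 (87.1%) were lower on the right, against 49.4% of all genes, and their median log2 fold change was -0.18. This rested on 2 of the 5 wild types. The share that was lower on the right was 98.5% in 10_1 and 99.0% in 8_1, but 48.1% in 7_1, 31.4% in 17_7 and 8.61% in 22_4, and by the mean ratio of the other 4 embryos it was 44.6% without 10_1 and 67.8% without 8_1. In the rightward looping mutants 248 of 394 (62.9%) were lower on the right, against 52.7% of all genes, at a median of -0.04. Single embryos of this group ran from 6.84% to 89.9%, and without 2_2 the mean ratio gave 42.5%. Of the left-sided genes, 49 of 73 (67.1%) were higher on the right in wild types, against 50.6% of all genes. Without 10_1 the mean ratio gave 30.1% and without 8_1 43.8%. In the rightward mutants it was 29 of 72 (40.3%), against 47.3%. Leaving out 1 embryo of that group, the mean ratio gave from 19.2% (without 19_6) to 72.6% (without 19_4). These groups share no library with the inverted embryos. The genes of a list are not independent of each other.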

How the data were processed

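RNA from the left and right heart field of 21 embryos was sequenced as paired-end reads from poly-A libraries. Per the labels and the study's methods, adapters were trimmed, duplicates were removed, reads were aligned to GRCm39 with STAR and they were counted on genes with featureCounts of Subread 2.0.6. The authors deposited the raw counts per gene, as whole numbers without normalization, for 56953 genes. The strand setting and the handling of reads on several genes are not given in the sources used here, so counts of overlapping genes and near-identical copies are uncertain. No column of another sample was in the table (0 columns were left out).

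Names were matched to GENCODE M39 for 56310 identifiers. Genes were kept by filterByExpr (a min.count of 5, a min.total.count of 10, a large.n of 50 and a min.prop of 0.2), scaled by TMM and tested with edgeR 4.0.16 in R 4.3.3 by the quasi-likelihood test, with Benjamini-Hochberg adjustment over all genes tested and a threshold of 0.05. The fit of right against left held the 10 inverted libraries with a block for the embryo, from which the left and right library both come. Residuals of both sides of an embryo correlated at 0.15 to 0.34 over the 2000 most variable genes, against a median of -0.08 between embryos. To compare groups, the interaction between side and group was tested in all 42 libraries. Ratios per embryo used a prior count of 2. SE were taken from the log2 fold change and its F statistic. The tests were run on simulated counts before use. These were drawn separately for each gene and without differences between embryos, so that they do not cover genes that move together. DESeq2 1.42.0 and other settings were tried as alternatives. Replicates are embryos.

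Named genes were the most changed called genes (12 right-sided and 8 left-sided, same direction in 5 embryos, at least 200 counts), the 5 with the smallest p in each direction, the genes of the study's transcriptomics, up to 5 called members of each list with at least 200 counts, and up to 5 genes a direction in each difference between groups. *Actc1*, *Mef2c*, *Gata5*, *Ryr2*, *Mybpc3*, *Synpo2l*, *Csrp3*, *Myl7*, *Myh7*, *Myom2*, *Olig2* and *Lmod2* fall outside this rule and were chosen after their values were seen. Some genes are not reported here, and lists are counted without them. The embryos and the gene lists were chosen with earlier results of these data known. Promoter windows were taken from GRCm39 with GENCODE start sites, and the CArG box and the MEF2 site were searched by their known consensus.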

Additional observations from a re-analysis of the deposited data

Results flagged for a closer look

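In 8 of 149 groups of 5 embryos that were examined (5.37%), 1 embryo stood apart from the rest by Dixon's 95% limit, which chance alone crosses in about 1 of 20 groups. Among right-sided genes, *Abra* had a log2 ratio of 4.12 in 18_2 against 1.41 to 2.03 in the others, *Shox2* had 0.19 in 2_7 against 1.15 to 1.46, and *Skil* had 0.0064 in 10_3 against 0.44 to 0.54. Among left-sided genes, *Ptgfr* had -1.35 in 18_2 against -0.79 to -0.66, and *Fzd10* had -0.27 in 10_3 against -1.13 to -0.88. The summed level of the BMP response genes had a ratio of 0.57 in 18_2 against 0.21 to 0.31, and that of the neural crest markers -0.96 in 32_2 against -0.40 to -0.34. In the wild types, *Ptgfr* had 1.08 in 8_1 against -0.02 to 0.29.

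Asymmetries that differed between groups were tested as interactions of side and group with edgeR's quasi-likelihood test and Benjamini-Hochberg adjustment. Of the named genes, 17 differed between inverted embryos and wild types. Those shifted to the right were *Lefty2* (5.45, adjusted p = 0.0182), *Srpk3* (2.84), *Dcaf12l1* (2.62), *Nptx2* (2.31), *Slc24a2* (2.26), *Ccn4* (1.91), *Hspb8* (1.56), *Bmp2* (1.41), *Bmper* (1.34), *Hk1* (1.16) and *Nid2* (0.72). Those shifted to the left were *Ret* (-1.01), *Srxn1* (-1.04), *Ptgfr* (-1.20), *Phf21b* (-1.28), *Ism1* (-1.40) and *D030025E07Rik* (-1.55). These differences were lost without 18_2, 32_2 or the wild type 8_1 for *Lefty2*, without 18_2, 32_2 or the wild type 10_1 for *Hspb8*, and without 18_2, 32_2 or the wild type 8_1 or 10_1 for *Srxn1*. Those of *Ret*, *Ism1*, *Ptgfr*, *Nid2* and *D030025E07Rik* were each lost without 4_6, 18_2, 32_2 or the wild type 7_1 or 8_1. That of *Ism1* was also lost without 2_7, the others of these also without 10_3, all but that of *D030025E07Rik* also without the wild type 10_1, and those of *Ret* and *D030025E07Rik* also without the wild type 17_7. Against the rightward looping mutants 16 differed. Those shifted to the right were *Lefty2* (6.07, adjusted p = 0.00217), *Nptx2* (2.40), *Srpk3* (2.40), *Dcaf12l1* (2.38), *Slc24a2* (2.02), *Wnt11* (1.92), *Bmper* (1.62), *Cacna1d* (1.60), *Ccn4* (1.44), *Bmp2* (1.31), *Spry4* (1.12), *Hk1* (1.00) and *Col5a1* (0.91). Those shifted to the left were *Kcng1* (-1.24), *Nxf3* (-1.36) and *Ptgfr* (-1.46). The difference of *Nxf3* was lost without 4_6, 10_3, 18_2 or 32_2, that of *Spry4* without 4_6, 18_2 or 32_2, and that of *Col5a1* without any 1 inverted embryo. With scaling by library size alone, the differences of *Nid2* from the wild types and of *Col5a1* from the rightward mutants were lost as well.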

How the results depend on the processing

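The number of asymmetric genes changed with the method. Against 468 in the inverted embryos, DESeq2 called 1755, no filter on low counts gave 942 and a fit of all 42 libraries gave 141. Males alone gave 53. Without the embryo as a block 223 were called, where the pairing comes from the embryo itself. Leaving out 1 embryo gave 138 to 446. Of the differences from wild types, 135 became 885 with DESeq2, 207 without the filter, 212 with newer edgeR dispersions and 7 without the block, and 17 to 641 without 1 embryo. Of those from the rightward mutants, 82 became 426, 131 without the filter and 24 without the block, and 18 to 75 without 1 inverted embryo. Other size factors, a stricter filter and a robust prior moved no count by over 1.5 times. Of 85 named genes that were called, 0 reversed under 15 alternatives, and 892 of 1273 values passed the threshold again. Of these genes, 28 stayed called without any 1 embryo and 3 under every alternative. Of the named differences between groups, 0 reversed, 221 of 303 values against wild types and 156 of 205 against rightward mutants passed the threshold again, and 3 and 6 genes passed it under every alternative. Among genes that were not called, *Misp3* (0.25) reversed to -0.36 without 10_3 and to -0.0041 without 18_2, within a range of -0.36 to 0.75, and *Lefty1* (-0.16) to 0.08 without 4_6 and to 0.60 without 10_3, within -0.90 to 0.60. The causes of these changes were not tested, beyond the fewer samples of some fits. *Nodal*, which had few counts, did not pass the filter and was not tested for asymmetry in the main fit.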
